A study of Mus musculus with 10 samples.

Results

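The genes described here are the E2F transcription factors other than E2f6 and 3 G1 cyclins, over all libraries and genotypes of a study of mouse embryonic stem cells. They were taken by name: E2f1, E2f2, E2f3, E2f4, E2f5, E2f7, E2f8, Ccne1, Ccne2 and Ccnd3, which are 10 of the 30460 Ensembl genes listed in each library. Embryonic stem cells are cultured cells that can form every tissue of the embryo, and all were of the C57BL/6 strain. RNA was sequenced from 3 wild type libraries, 3 labelled Mga-/-, 2 labelled L3mbtl2-/- and 2 labelled Pcgf6-/-, where each knockout label names 1 gene and no other treatment. MGA, L3MBTL2 and PCGF6 are subunits of PRC1.6, a variant Polycomb repressive complex that also holds E2F6 and MAX. The sources used here do not say how the alleles were made or whether replicates came from separate clones or cultures. The p-values then measure the spread between these libraries alone, which may be technical.

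E2F proteins bind DNA at promoters of genes for DNA replication and cell division. Cyclin D with CDK4 or CDK6, and then cyclin E with CDK2, phosphorylate the retinoblastoma family of pocket proteins, which releases E2F proteins and lets cells pass from G1 into S phase. Embryonic stem cells are known for a short G1 phase, for high cyclin E activity through the cell cycle and for low levels of D cyclins.

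Levels are FPKM, read counts scaled by exon length and library depth, so they can be set side by side between genes. A difference is a log2 fold change of FPKM + 0.1 with its standard error (SE), from limma fitted on 15731 genes and all 10 libraries at once. A gene rose or fell where its adjusted p, corrected by Benjamini-Hochberg over all those genes, was under 0.05. All 10 members were above 0.5 FPKM in at least 2 libraries and so entered the test. Between 191 and 7797 reads lay behind each value of a member, and the counting error was at most 7.24% of the value.

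The 2 clearest differences were in Ccne1, which fell 4.08-fold in Mga-/- and 2.63-fold in L3mbtl2-/- cells but was near its wild type level in Pcgf6-/- cells, and in E2f2, which rose in all 3 knockouts by 1.97-fold to 2.69-fold. These 5 calls held under each of the 18 alternative settings tried. The other members moved less, or moved in 1 or 2 of the knockouts, and several of their calls depended on the setting.

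Depth, the read total implied by the deposited values, was 19370096 to 26726693 reads per library. L3mbtl2 RNA was at 18.4% and 17.3% of its wild type mean in the L3mbtl2-/- libraries, and Pcgf6 RNA at 33.1% and 34.0% in the Pcgf6-/- libraries. Mga RNA was at 43.5% of its wild type mean in Mga replicate 1 and 60.5% in Mga replicate 3. The library labelled Mga knockout replicate 2 had 106% of that mean, so its label was not borne out by this measure. Whether the reads fall in a deleted part cannot be told from values per gene. The median SD of a gene among the Mga libraries was 0.338 on the log2 scale, against 0.0637 to 0.0864 in the other groups. The 8 stem cell markers were above 1 FPKM in every library, and their summed level was 2356 to 2556 FPKM in wild type and 3333 to 4136 FPKM in the knockouts. Summed macrophage markers were 156 to 163 FPKM in wild type, 8.85 to 31.8 in Mga, 442 to 455 in L3mbtl2 and 210 to 212 in Pcgf6 libraries. Summed fibroblast markers were 271 to 278 FPKM in wild type, 334 to 635 in Mga, 339 to 347 in L3mbtl2 and 293 in Pcgf6 libraries, with Fn1 the largest part. Without Fn1 the sums were 129 to 131, 116 to 406, 142 and 93.3 to 96.9 FPKM in the same order, and in Pcgf6 knockout cells 8 of the 10 fibroblast markers had a group mean below wild type. Of the 10 macrophage markers, Tyrobp, Pf4, C1qa and Ptprc were listed at 0 in 1 or 2 of the Mga libraries, and all 10 fibroblast markers were above 0 in every library. Summed over 9 trophoblast markers the level was 402 to 417 FPKM in wild type and 68.9 to 205 in Mga libraries. It was 35.0 to 37.0 FPKM in L3mbtl2 and 88.5 to 89.1 in Pcgf6 libraries. In wild type most of it was Krt8 and Krt18. Group means of 6, 8 and 7 of the 9 lay below wild type in the 3 knockouts. Over 8 primitive endoderm markers the sum was 15.7 to 16.9 FPKM in wild type and 14.3 to 22.1 in Mga libraries. That sum was 19.5 to 19.7 FPKM in L3mbtl2 and 29.1 to 29.6 in Pcgf6 libraries, with 6, 7 and 8 group means above wild type in the 3 knockouts. Lama1 was the largest part of it in wild type. Without Lama1 the sums were 4.16 to 5.34 FPKM in wild type and 6.64 to 12.5 in Mga libraries. They were then 12.9 to 13.2 FPKM in L3mbtl2 and 13.3 to 14.1 in Pcgf6 libraries. The 7 markers of 2-cell-like cells, a rare state of stem cell cultures, summed to at most 0.0836 FPKM in wild type, 4.40 to 28.3 in Mga, 0.513 to 0.522 in L3mbtl2 and 15.9 to 16.4 in Pcgf6 libraries. The part of these differences in the values of the members, E2f2 and Ccne1 among them, was not tested. In bulk RNA, fewer cells of a type and less RNA per cell cannot be told apart.

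E2f1, E2f2 and E2f3 encode the activator E2F proteins, which drive transcription at the G1 to S transition. E2f2 (ENSMUSG00000018983, chr4:136172394-136196057 of GRCm38, plus strand) was the least abundant of the 3. Its level was 1.64, 1.53 and 1.49 FPKM in wild type and 4.95, 3.82 and 3.70 FPKM in the Mga libraries. It was 3.00 and 3.32 FPKM in L3mbtl2 and 4.04 and 4.66 FPKM in Pcgf6 libraries. Every knockout library lay above every wild type library, the library labelled Mga knockout replicate 2 included.

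The log2 fold change of E2f2 was 1.35 (SE 0.14, adjusted p = 0.000267) in Mga knockout cells. The same difference was 0.98 (SE 0.16, adjusted p = 0.00203) in L3mbtl2 and 1.43 (SE 0.16, adjusted p = 0.00197) in Pcgf6 knockout cells. By group mean the order was wild type at 1.55 ± 0.0738 FPKM (SD, n = 3), L3mbtl2 at 3.16 ± 0.222 (n = 2), Mga at 4.16 ± 0.687 (n = 3) and Pcgf6 at 4.35 ± 0.442 (n = 2). Only the first step in that order passed the test, and the upper neighbours did not differ beyond their spread (adjusted p = 0.126 and 0.770). E2f2 made up 4.81% to 5.01% of the summed activator RNA in wild type libraries and 8.51% to 14.0% in knockout libraries. Across the 18 settings, the adjusted p of E2f2 was at most 0.00528 in Mga, 0.0274 in L3mbtl2 and 0.0417 in Pcgf6 knockout cells.

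The promoter windows of E2f2 are shown because it is the one member that rose in every knockout. RefSeq lists 2 start sites for E2f2, with windows of 300 bases, 250 before to 50 after the start, at chr4:136172024-136172323 and chr4:136180532-136180831 of GRCm38.p6, both on the plus strand, and the second lies inside the gene. Capitals mark an E2F site (TTTGGCGC, found 40 bases after the first start) and T-box motifs (GGTGTGA, found 207 and 127 bases before the second start), the letters bound by the DNA-binding domain class that MGA carries.
E2f2 window 1: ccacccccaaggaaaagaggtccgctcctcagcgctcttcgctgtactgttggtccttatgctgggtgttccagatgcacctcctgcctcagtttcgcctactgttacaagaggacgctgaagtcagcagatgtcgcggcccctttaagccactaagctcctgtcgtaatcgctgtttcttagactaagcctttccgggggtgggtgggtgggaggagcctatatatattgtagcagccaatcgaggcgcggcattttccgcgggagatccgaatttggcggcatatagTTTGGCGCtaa
E2f2 window 2: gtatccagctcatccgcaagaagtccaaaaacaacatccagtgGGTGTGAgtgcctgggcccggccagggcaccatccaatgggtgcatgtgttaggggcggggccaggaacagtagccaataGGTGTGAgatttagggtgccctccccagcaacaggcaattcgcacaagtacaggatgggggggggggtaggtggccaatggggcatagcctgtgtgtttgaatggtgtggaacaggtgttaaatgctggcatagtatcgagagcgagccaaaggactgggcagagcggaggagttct
The search took an E2F site as TTTGGCGC, TTTGCCGC, TTTCGCGC or TTTCCCGC, an E-box as CACGTG, the letters known for MAX dimers, and a T-box motif as GGTGTGA, each on both strands. A window table entry was matched for 7 of the 10 members, with 10 windows in all, and none was matched for E2f4, E2f5 and Ccne2. Such an E2F site was in 3 of the 10 windows, those of E2f2 (window 1), E2f3 (window 2) and E2f7, against 2.27% of all 32851 windows of the same length. The E-box was in 1 window, of E2f3 (window 1), against 7.15% of all windows, and the T-box motif in 1, of E2f2 (window 2), against 3.98%. Window 1 of E2f3, window 2 of Ccnd3 and the only window of E2f1 also lie inside their genes. The bases before the GENCODE start of E2f1, at chr2:154569892, were therefore not searched. These matches describe letters, not bound sites, and no binding data were analysed here.

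E2f1 (ENSMUSG00000027490, chr2:154559407-154569892, minus strand) did not pass the test in any knockout. Its wild type libraries held 18.4, 17.3 and 16.9 FPKM, and the Mga libraries 15.6, 18.5 and 19.8, on both sides of wild type. L3mbtl2 libraries held 19.9 and 20.7 FPKM and Pcgf6 libraries 15.1 and 15.8, so the L3mbtl2 libraries were the highest of the 10 and the Pcgf6 libraries lay below wild type, beside the lowest Mga library. The log2 differences from wild type were 0.03 (adjusted p = 0.841), 0.21 (adjusted p = 0.149) and -0.18 (adjusted p = 0.329) in Mga, L3mbtl2 and Pcgf6 knockout cells. In Mga knockout cells that sign turned with median-of-ratios size factors (-0.07), with centring by chromosome (-0.13) and with Mga replicate 3 left out (-0.05).

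Between L3mbtl2 and Pcgf6 knockout cells E2f1 differed by 0.39 (SE 0.12, adjusted p = 0.0358), higher in L3mbtl2. That call was lost in 10 of the 18 settings, among them each of the 4 that left out an L3mbtl2 or Pcgf6 library (adjusted p = 0.120 to 0.162).

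E2f3 (ENSMUSG00000016477, chr13:29906575-29986063, minus strand) had 13.0, 11.8 and 12.6 FPKM in wild type and 14.8, 16.5 and 16.1 FPKM in the Mga libraries. L3mbtl2 libraries held 12.4 and 12.9 FPKM, inside the wild type range, and Pcgf6 libraries 14.5 and 14.3, just above it. E2f3 rose in Mga knockout cells by 0.34 (SE 0.08, adjusted p = 0.00865). The difference was 0.21 in Pcgf6 (adjusted p = 0.160) and 0.02 in L3mbtl2 knockout cells (adjusted p = 0.883), where median-of-ratios size factors turned it to -0.10 and centring by chromosome to -0.18. The Mga call was lost when each group kept its own spread (adjusted p = 0.0693) and when values were centred by chromosome (adjusted p = 0.0646). E2f3 was also higher in Mga than in L3mbtl2 knockout cells, by 0.32 (SE 0.09, adjusted p = 0.0275), and this call was lost in 8 of the 18 settings.

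**Figure D1:**
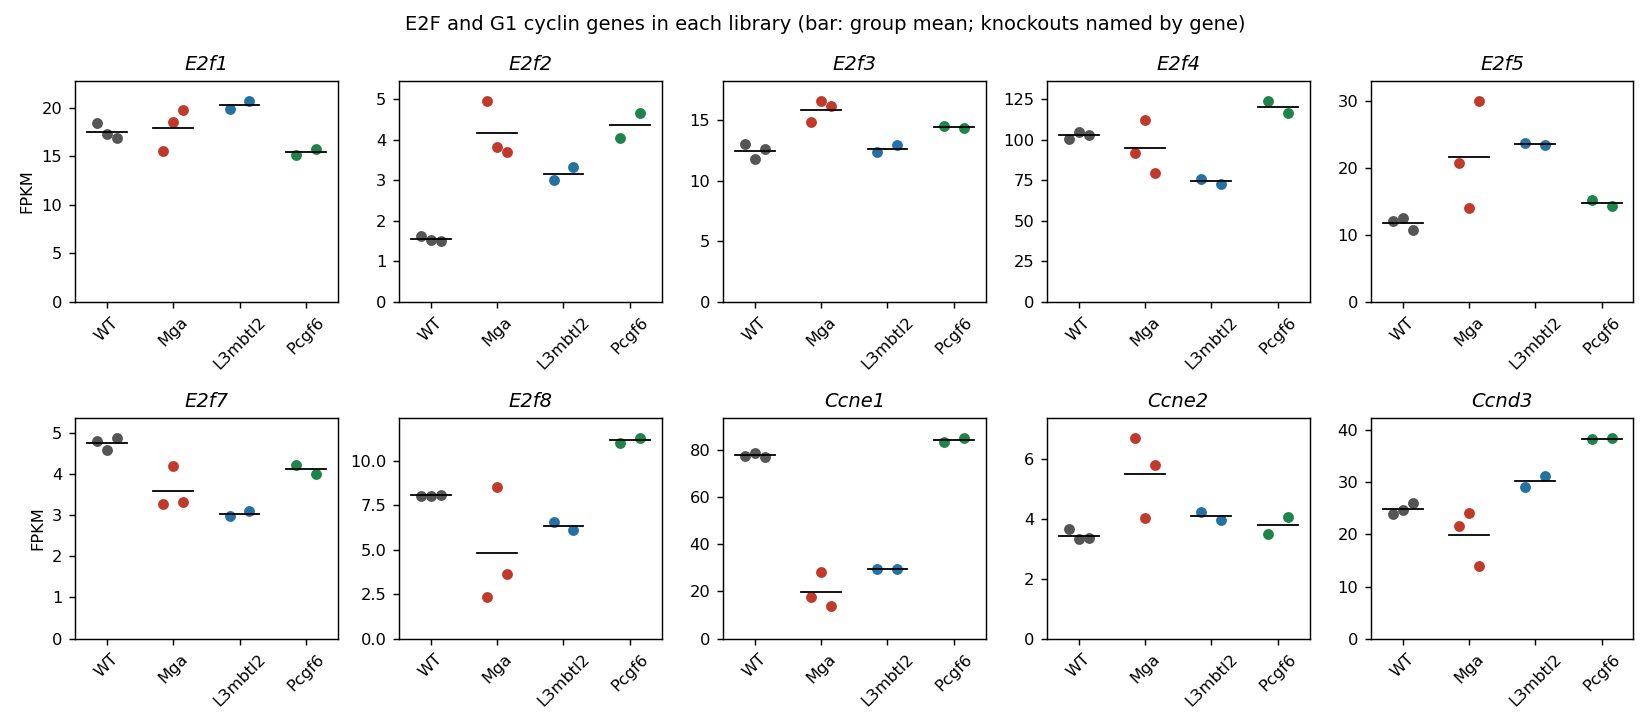
FPKM of each of the 10 genes (vertical axes, from 0) in each library, grouped on the horizontal axes as wild type (WT) and the 3 knockouts. Points are libraries and bars are group means. E2f2 is above wild type in every knockout library, and Ccne1 is 13.9 to 29.7 FPKM in the Mga and L3mbtl2 libraries against 77.1 to 78.7 in wild type.

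E2f4 and E2f5 encode the E2F proteins that mostly act with the pocket proteins p107 and p130 to repress cell cycle genes in quiescent and G1 cells. E2f4 (ENSMUSG00000014859, chr8:105297663-105305370, plus strand) was the most abundant E2F gene, with 101, 105 and 103 FPKM in wild type. The Mga libraries held 92.0, 112 and 79.5 FPKM, on both sides of wild type. L3mbtl2 libraries held 75.8 and 72.7 FPKM, below all others, and Pcgf6 libraries 124 and 117 FPKM, above all others. E2f4 fell in L3mbtl2 knockout cells by 0.47 log2 units (SE 0.13, adjusted p = 0.0177). That call was lost when wild type replicate 2 (adjusted p = 0.0550) or either L3mbtl2 library was left out (adjusted p = 0.0783 and 0.109). The differences in Mga (-0.13, adjusted p = 0.369) and Pcgf6 knockout cells (0.22, adjusted p = 0.298) did not pass, and with the library labelled Mga knockout replicate 2 left out the Mga value was -0.26 (adjusted p = 0.0138). L3mbtl2 and Pcgf6 knockout cells differed by -0.69 (SE 0.14, adjusted p = 0.00730), a call lost without L3mbtl2 replicate 2 (adjusted p = 0.0557) or Pcgf6 replicate 1 (adjusted p = 0.0569).

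E2f5 (ENSMUSG00000027552, chr3:14578641-14606309, plus strand) was 12.1, 12.5 and 10.7 FPKM in wild type. It was 20.7, 14.0 and 29.9 FPKM in the Mga libraries, all above wild type, from just above it to the highest level of the series. L3mbtl2 libraries held 23.7 and 23.3 FPKM, and Pcgf6 libraries 15.1 and 14.3. E2f5 rose by 0.80 (SE 0.23, adjusted p = 0.0231) in Mga and by 1.0 (SE 0.26, adjusted p = 0.0148) in L3mbtl2 knockout cells. In Pcgf6 knockout cells it differed by 0.32 (adjusted p = 0.474). The Mga call was lost when any one wild type library was left out (adjusted p = 0.0531 to 0.0782) or only the 2 groups were fitted (adjusted p = 0.0711). With the library labelled Mga knockout replicate 2 left out it was 1.08 (adjusted p = 0.000612). The L3mbtl2 call was lost without either L3mbtl2 library (adjusted p = 0.0780 and 0.0840). So E2f4 and E2f5 took opposite directions in L3mbtl2 knockout cells, and because E2f4 is the larger of the pair their summed level was 96.0 to 99.5 FPKM there against 113 to 117 FPKM in wild type.

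E2f7 and E2f8 encode the atypical E2F proteins, which bind DNA without a DP partner and repress E2F target genes late in the cell cycle. E2f7 (ENSMUSG00000020185, chr10:110745439-110787384, plus strand) was 4.80, 4.59 and 4.88 FPKM in wild type and lower in every knockout library. The Mga libraries held 3.26, 4.18 and 3.32 FPKM, the L3mbtl2 libraries 2.97 and 3.10, and the Pcgf6 libraries 4.21 and 4.01. E2f7 fell by 0.41 log2 units (SE 0.12, adjusted p = 0.0269) in Mga and by 0.63 (SE 0.13, adjusted p = 0.00668) in L3mbtl2 knockout cells, and the Pcgf6 difference was -0.21 (adjusted p = 0.377). The Mga call was lost in 7 of the 18 settings (adjusted p up to 0.0956), among them the 3 that left out a wild type library and the one without Mga replicate 3 (adjusted p = 0.0615). It was -0.52 (adjusted p = 0.00134) when the library labelled Mga knockout replicate 2 was left out. In L3mbtl2 knockout cells it was lost without L3mbtl2 replicate 1 (adjusted p = 0.0595).

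The window of E2f7 (chr10:110745189-110745488, plus strand) is shown because E2f7 fell in 2 knockouts and holds the E2F letters, here on the opposite strand and so read as GCGGGAAA, 198 bases before the start. A match to an E2F site is a description of the window and draws no link to the fall.
E2f7 window: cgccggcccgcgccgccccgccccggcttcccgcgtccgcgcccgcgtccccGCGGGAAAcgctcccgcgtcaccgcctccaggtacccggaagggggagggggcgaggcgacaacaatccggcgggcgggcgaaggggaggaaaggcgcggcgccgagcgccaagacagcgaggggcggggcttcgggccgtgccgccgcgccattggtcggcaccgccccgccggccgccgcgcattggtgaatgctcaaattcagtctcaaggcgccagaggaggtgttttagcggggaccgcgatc

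E2f8 (ENSMUSG00000046179, chr7:48866429-48881596, minus strand) was the member whose Mga libraries differed most among themselves. Its wild type level was 8.05, 8.05 and 8.09 FPKM, the closest agreement of any member. The Mga libraries held 2.36, 8.55 and 3.64 FPKM, so replicates 1 and 3 were far below wild type and the library labelled Mga knockout replicate 2 was above it. L3mbtl2 libraries held 6.58 and 6.10 FPKM, below wild type, and Pcgf6 libraries 11.02 and 11.3, above it. In the fit shared by all libraries, E2f8 did not pass in any comparison with wild type: -0.93 (SE 0.37, adjusted p = 0.0777) in Mga, -0.34 (SE 0.42, adjusted p = 0.540) in L3mbtl2 and 0.46 (SE 0.42, adjusted p = 0.538) in Pcgf6 knockout cells. With the library labelled Mga knockout replicate 2 left out, the Mga difference of E2f8 was -1.43 (adjusted p = 0.000244). When each group kept its own spread, E2f8 passed in Mga (adjusted p = 0.0435), L3mbtl2 (adjusted p = 0.0216) and Pcgf6 knockout cells (adjusted p = 0.00908). In fits of the 2 groups alone it passed in L3mbtl2 (adjusted p = 0.00252) and Pcgf6 knockout cells (adjusted p = 0.000853). E2f8 was lower in Mga than in Pcgf6 knockout cells by 1.39 log2 units (SE 0.42, adjusted p = 0.0436), a call lost in 12 of the 18 settings. L3mbtl2 and Pcgf6 knockout cells differed by -0.81 (adjusted p = 0.208), and by the same amount with adjusted p = 0.00712 once the library labelled Mga knockout replicate 2 no longer entered the shared spread.

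**Figure D2:**
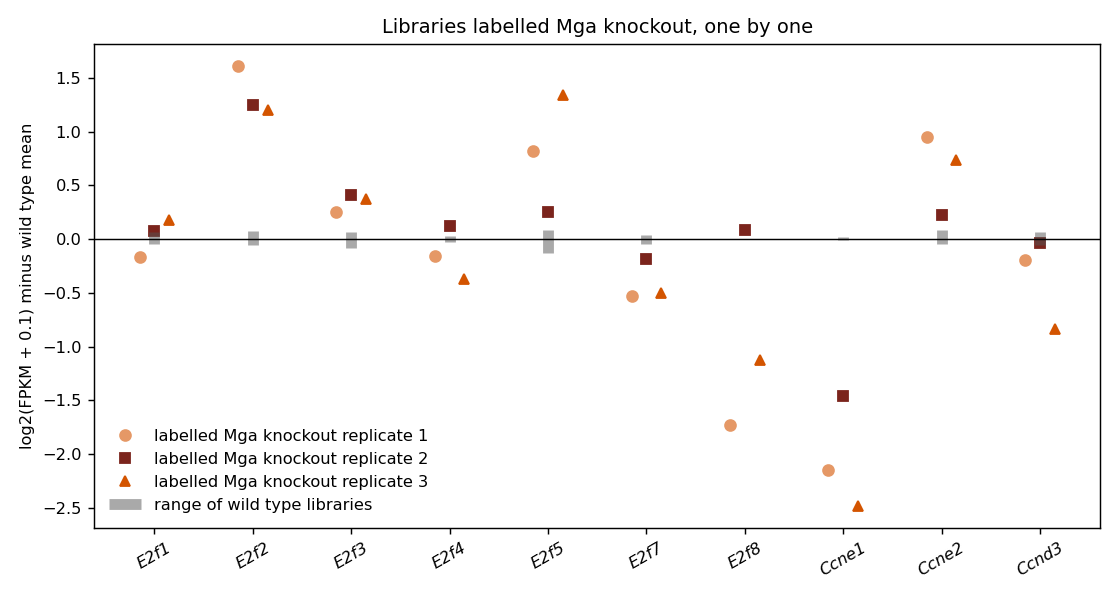
Difference of each library labelled Mga knockout from the wild type mean, in log2(FPKM + 0.1) (vertical axis), for the 10 genes (horizontal axis). Grey bars show the range of the wild type libraries. Replicate 2 is at 0.08 for E2f8 where replicates 1 and 3 are at -1.73 and -1.13, and all 3 are above 1.2 for E2f2 and below -1.4 for Ccne1.

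Gene by gene, the library labelled Mga knockout replicate 2 lay nearer to wild type than both other Mga libraries for E2f4, E2f5, E2f7, E2f8, Ccne1, Ccne2, Ccnd3 and E2f1. It was nearest for none of E2f2 and E2f3, where its differences of 1.25 and 0.41 lay between or beyond those of the other Mga libraries. For Ccne1 the 3 libraries differed from wild type by -2.15, -1.46 and -2.48, and for E2f5 by 0.82, 0.25 and 1.34. Mga RNA in that library was at 106% of wild type, as given above, and its part in these values was not tested.

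Ccne1 and Ccne2 encode cyclins E1 and E2, which activate CDK2 at the start of S phase. Ccne1 (ENSMUSG00000002068, chr7:38097984-38107534, minus strand) was 77.5, 78.7 and 77.1 FPKM in wild type. It was 17.5, 28.3 and 13.9 FPKM in the Mga libraries and 29.7 and 29.4 FPKM in the L3mbtl2 libraries, all far below wild type. In Pcgf6 libraries it was 83.1 and 85.0 FPKM, above wild type by a small margin.

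Ccne1 fell by 2.03 log2 units (SE 0.21, adjusted p = 0.000259) in Mga and by 1.39 (SE 0.24, adjusted p = 0.00245) in L3mbtl2 knockout cells. In Pcgf6 knockout cells it differed from wild type by 0.11 (SE 0.24, adjusted p = 0.822), which did not pass. That small difference passed in the fit of those 2 groups alone (adjusted p = 0.0160), and with the replicate block it turned to -0.0043. The difference between knockouts was itself tested: Ccne1 was lower in Mga than in Pcgf6 knockout cells by 2.14 (SE 0.24, adjusted p = 0.000899), and lower in L3mbtl2 than in Pcgf6 knockout cells by 1.51 (SE 0.26, adjusted p = 0.00415). Mga and L3mbtl2 knockout cells differed by -0.63 (SE 0.24, adjusted p = 0.0892), and by -0.92 (adjusted p = 0.000457) when the library labelled Mga knockout replicate 2 was left out. By group mean the order was Mga at 19.9 ± 7.50 FPKM (SD, n = 3), L3mbtl2 at 29.5 ± 0.208 (n = 2), wild type at 77.8 ± 0.852 (n = 3) and Pcgf6 at 84.0 ± 1.36 (n = 2), and of the 3 steps only the one from L3mbtl2 to wild type passed.

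Over the 18 settings the Mga difference of Ccne1 lay between -2.31 and -1.80 and the L3mbtl2 difference between -1.51 and -1.34, with adjusted p of at most 0.0250. The call between Mga and Pcgf6 knockout cells was lost in the fit of those 2 groups alone (adjusted p = 0.0515). Ccne1 and E2f8 lie on chromosome 7, where the median difference of all 1208 tested genes was 0.04 in Mga, -0.05 in L3mbtl2 and 0.10 in Pcgf6 knockout cells.

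The window of Ccne1 (chr7:38107441-38107740, minus strand) is shown because it belongs to the member with the largest change, and is 76% G or C. It held none of the E2F, E-box or T-box letters searched, which says only that these letters are not in it.
Ccne1 window: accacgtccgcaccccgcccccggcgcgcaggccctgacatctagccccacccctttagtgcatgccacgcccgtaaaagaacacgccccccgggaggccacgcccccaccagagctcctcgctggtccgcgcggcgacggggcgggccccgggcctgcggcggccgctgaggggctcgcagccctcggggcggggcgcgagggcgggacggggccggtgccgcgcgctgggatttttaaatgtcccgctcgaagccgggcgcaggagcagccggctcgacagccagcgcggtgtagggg

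Ccne2 (ENSMUSG00000028212, chr4:11191351-11204779, plus strand) was much less abundant, at 3.65, 3.32 and 3.36 FPKM in wild type. The Mga libraries held 6.71, 4.04 and 5.80 FPKM, all above wild type, and here too the library labelled Mga knockout replicate 2 was the nearest to it. L3mbtl2 libraries held 4.23 and 3.96 FPKM and Pcgf6 libraries 3.51 and 4.08, the first of which lay inside the wild type range. Ccne2 rose in Mga knockout cells by 0.64 (SE 0.18, adjusted p = 0.0215). The differences of 0.25 (adjusted p = 0.352) in L3mbtl2 and 0.13 (adjusted p = 0.730) in Pcgf6 knockout cells did not pass. The Mga call was lost in 6 of the 18 settings, among them leaving out wild type replicate 2 (adjusted p = 0.0705), wild type replicate 3 (adjusted p = 0.0674) or Mga replicate 3 (adjusted p = 0.0608). Reads from Ints8 on the opposite strand, which shares 609 exon bases with Ccne2, could not be told apart from those of Ccne2 with a kit that does not mark strand.

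Summed over both genes, cyclin E RNA was 80.4 to 82.0 FPKM in wild type and 86.6 and 89.1 FPKM in Pcgf6 libraries. It was 24.2, 32.3 and 19.7 FPKM in the Mga libraries and 33.9 and 33.3 FPKM in the L3mbtl2 libraries. The rise of Ccne2 in Mga libraries amounted to a few FPKM and left the sum far below wild type. Ccne2 was 4.05% to 4.50% of cyclin E RNA in wild type and 4.05% and 4.58% in Pcgf6 libraries. Its share was 27.7%, 12.5% and 29.5% in the Mga libraries and 12.5% and 11.9% in the L3mbtl2 libraries.

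**Figure D3:**
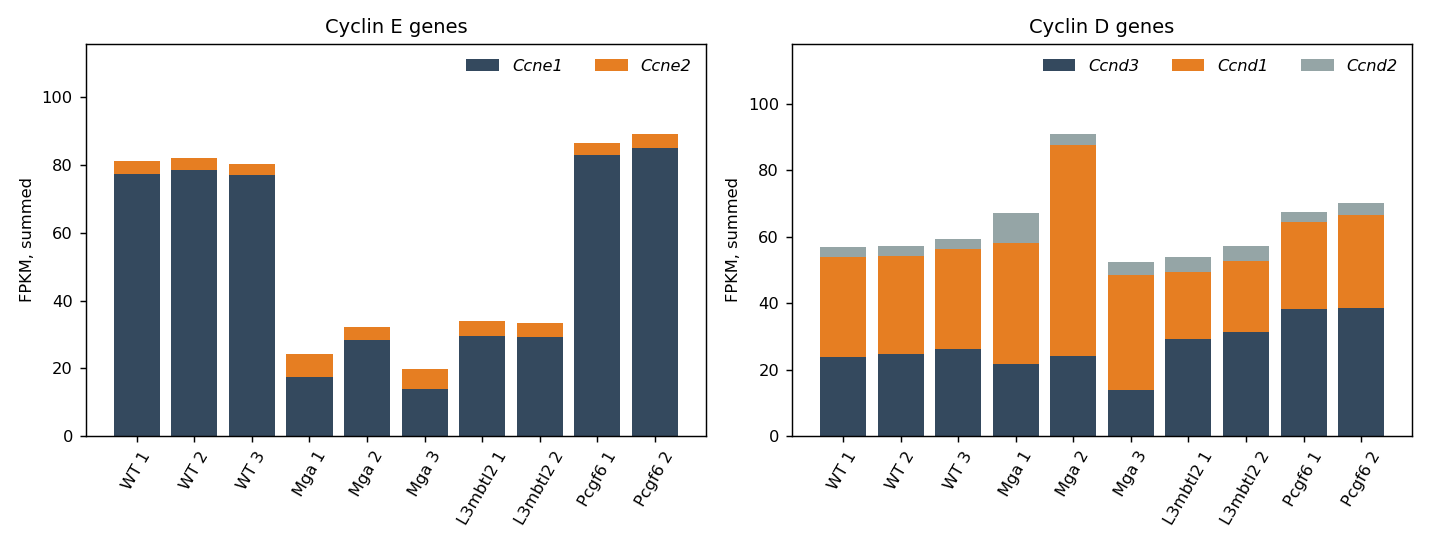
Summed FPKM (vertical axes, from 0) of the cyclin E genes and of the cyclin D genes in each library (horizontal axes), stacked by gene, with WT for wild type. The cyclin E sum is 80.4 to 89.1 FPKM in wild type and Pcgf6 libraries and 19.7 to 33.9 FPKM in Mga and L3mbtl2 libraries, nearly all of it Ccne1.

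Ccnd3 (ENSMUSG00000034165, chr17:47505051-47599691, plus strand) encodes cyclin D3, a partner of CDK4 and CDK6 that responds to growth signals. It was 23.9, 24.6 and 26.1 FPKM in wild type. Mga libraries held 21.7, 24.2 and 13.9 FPKM, overlapping wild type. L3mbtl2 libraries held 29.2 and 31.2 FPKM and Pcgf6 libraries 38.2 and 38.5, so Pcgf6 was the highest group. No comparison with wild type passed: -0.36 (SE 0.18, adjusted p = 0.140) in Mga, 0.28 (SE 0.20, adjusted p = 0.290) in L3mbtl2 and 0.63 (SE 0.20, adjusted p = 0.0818) in Pcgf6 knockout cells. The Pcgf6 difference passed when each group kept its own spread (adjusted p = 6.6e-05) or when only Pcgf6 and wild type were fitted (adjusted p = 0.000804), and without Mga replicate 2 (adjusted p = 0.0273) or Mga replicate 3 (adjusted p = 0.00290). Leaving out the library labelled Mga knockout replicate 2 gave a Mga difference of -0.52 (adjusted p = 0.0276).

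Ccnd3 was lower in Mga than in Pcgf6 knockout cells by 0.98 log2 units (SE 0.20, adjusted p = 0.0108), and lower in Mga than in L3mbtl2 knockout cells by 0.64 (SE 0.20, adjusted p = 0.0494). The former call was lost in 3 of the 18 settings, without Pcgf6 replicate 1 (adjusted p = 0.0774), without Pcgf6 replicate 2 (adjusted p = 0.0821) and in the fit of those 2 groups alone, and the latter in 12. Ccnd3 shares 361 exon bases with Bysl on the opposite strand, whose reads could not be told apart.

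The other D cyclins were given beside Ccnd3. Ccnd1 was 29.7 to 30.4 FPKM in wild type, 36.4, 63.6 and 34.7 FPKM in Mga, 20.3 and 21.4 in L3mbtl2 and 26.2 and 28.2 in Pcgf6 libraries. Ccnd2 was 2.85 to 3.05 FPKM in wild type and 9.18, 3.06 and 3.74 FPKM in Mga libraries. It was 4.57 and 4.51 FPKM in L3mbtl2 and 3.07 and 3.33 FPKM in Pcgf6 libraries. Neither passed the test against wild type with all libraries. With the library labelled Mga knockout replicate 2 left out, Ccnd1 differed by 0.24 (adjusted p = 0.00863) in Mga and by -0.53 (adjusted p = 0.000232) in L3mbtl2 knockout cells. Ccnd2 then differed by 0.95 (adjusted p = 0.0319) in Mga knockout cells. It did not pass in L3mbtl2 knockout cells (0.59, adjusted p = 0.145). Of the summed cyclin D RNA, Ccnd3 made up 41.9% to 44.0% in wild type, 26.5% to 32.2% in Mga, 54.0% and 54.7% in L3mbtl2 and 56.7% and 55.0% in Pcgf6 libraries.

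Counted over the 10 members, 4 rose (E2f2, E2f3, E2f5 and Ccne2) and 2 fell (E2f7 and Ccne1) in Mga knockout cells, so 6 passed. Of all tested genes 39.5% passed in Mga, 22.8% higher and 16.7% lower. In L3mbtl2 knockout cells 2 rose (E2f2 and E2f5) and 3 fell (E2f4, E2f7 and Ccne1), so 5 passed. Of all tested genes 40.0% passed in L3mbtl2, 23.4% higher and 16.7% lower. In Pcgf6 knockout cells 1 rose (E2f2) and none fell by limma, at an unadjusted p under 0.05 or by limma-voom. Of all tested genes 10.1% passed in Pcgf6, 5.45% higher and 4.62% lower. These shares are near the background, and the count is not a result about the members. Median differences of the members were -0.05, 0.11 and 0.22 in Mga, L3mbtl2 and Pcgf6 knockout cells, beside 0.10, 0.13 and 0.04 over all tested genes. Between Mga and L3mbtl2 knockout cells 2 members differed, 1 higher and 1 lower in Mga, where 22.8% of all genes did (10.9% higher, 12.0% lower). Between Mga and Pcgf6, 3 members were lower in Mga, where 22.6% of all genes differed (12.0% higher, 10.6% lower). Between L3mbtl2 and Pcgf6, 1 member was higher and 2 were lower in L3mbtl2, where 30.5% of all genes differed (16.6% higher, 13.9% lower). The 3 comparisons with wild type share the same wild type libraries.

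All libraries of the knockout lay on 1 side of all wild type libraries for 6 of 10 members in Mga (48.7% of all genes), 9 of 10 in L3mbtl2 (79.5%) and 9 of 10 in Pcgf6 (65.5%). Between knockouts it was 7 of 10 for Mga against L3mbtl2 (45.9%), 5 of 10 for Mga against Pcgf6 (46.8%) and 9 of 10 for L3mbtl2 against Pcgf6 (82.5%). The Pcgf6 comparison called 8 members when each group kept its own spread, in place of the 1 spread shared with the Mga libraries, and 9 in the fit of those 2 groups alone, where 47.7% and 43.7% of all genes were called. The L3mbtl2 comparison then called 9 in both, where 70.6% and 67.3% of all genes were called. Median-of-ratios size factors moved the median of all genes in the L3mbtl2 comparison by -0.11, and relative to the deposited median the L3mbtl2 differences were 0.85 for E2f2, 0.87 for E2f5, -0.60 for E2f4, -0.76 for E2f7 and -1.53 for Ccne1. With those size factors the share of higher genes among all those called in that comparison went from 58.4% to 47.8%.

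**Figure D4:**
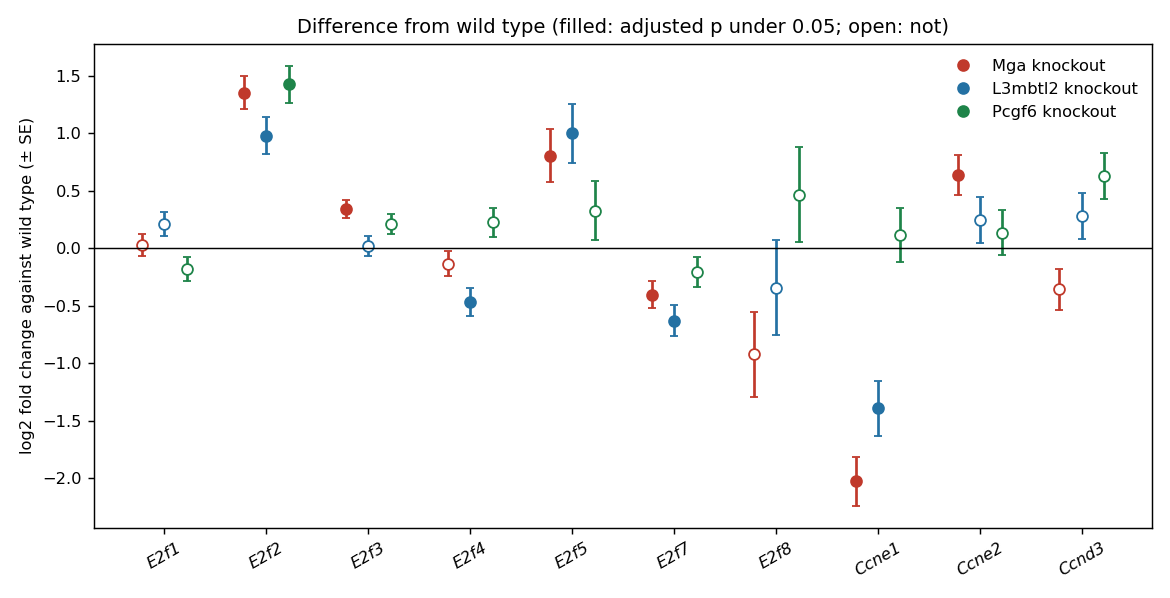
log2 fold change against wild type with its standard error (vertical axis) for the 10 genes (horizontal axis) in the 3 knockouts. Filled points passed the test at an adjusted p under 0.05 and open points did not. Ccne1 stands at -2.03 and -1.39 in Mga and L3mbtl2 and at 0.11 in Pcgf6 knockout cells, and E2f2 is above 0.9 in all 3.

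The rest of the pathway was taken from 7 lists, chosen with earlier results of these data known. Beside their counts stand the shares of all tested genes, 22.8% higher and 16.7% lower in Mga, 23.4% and 16.7% in L3mbtl2 and 5.45% and 4.62% in Pcgf6 knockout cells, and the medians of all genes, 0.10, 0.13 and 0.04. Those shares, with the library labelled Mga knockout replicate 2 left out, were 32.6% and 22.5% in Mga, 31.6% and 22.6% in L3mbtl2 and 14.0% and 11.1% in Pcgf6 knockout cells. Of the 6 pocket protein, DP partner and E2f6 genes, 3 rose and none fell in Mga, 3 rose and 1 fell in L3mbtl2, and 1 rose in Pcgf6 knockout cells, with list medians of 0.58, 0.57 and 0.07. Leaving out that library gave 4 higher and 1 lower in Mga, the same in L3mbtl2, and 2 higher and 1 lower in Pcgf6 knockout cells. E2f6, which encodes the PRC1.6 subunit and repressor left out of the member list, was 11.01 to 11.3 FPKM in wild type and higher in all 7 knockout libraries. It was 39.9, 31.7 and 31.5 FPKM in Mga, 27.8 and 28.7 in L3mbtl2 and 18.6 and 20.9 in Pcgf6 libraries. E2f6 rose by 1.61 (adjusted p = 2.09e-05), 1.33 (adjusted p = 0.000116) and 0.82 (adjusted p = 0.00469) in the 3 knockouts. Rbl1, which encodes the pocket protein p107, rose by 0.83 (adjusted p = 0.000246) in Mga and 0.54 (adjusted p = 0.00321) in L3mbtl2 knockout cells. Tfdp1, the main DP partner, was 135 to 138 FPKM in wild type and 71.5 and 69.99 FPKM in L3mbtl2 libraries, where it fell by 0.95 log2 units (adjusted p = 0.00165).

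Of 8 matched other G1 cyclin, kinase and Cdc25a genes (Cdk3 had no match), 1 rose and 1 fell in Mga, 1 rose and 2 fell in L3mbtl2, and none passed in Pcgf6 knockout cells (1 at an unadjusted p under 0.05 and none by limma-voom). List medians were 0.32, -0.17 and 0.15, and leaving out the library labelled Mga knockout replicate 2 gave 3 higher and 2 lower in Mga and 1 higher in Pcgf6 knockout cells. Cdk6 rose by 0.78 (adjusted p = 0.00591) in Mga knockout cells. Cdc25a, the phosphatase that activates CDK2, was 16.5 to 18.0 FPKM in wild type and 10.6, 15.1 and 12.6 FPKM in Mga libraries. It fell by 0.45 log2 units (adjusted p = 0.0173) in Mga and by 0.39 (adjusted p = 0.0441) in L3mbtl2 knockout cells.

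Of the 7 CDK inhibitor genes, 3 rose in Mga, 1 fell in L3mbtl2 and none passed in Pcgf6 knockout cells, nor at an unadjusted p under 0.05 or by limma-voom. List medians were 0.39, -0.59 and 0.01. Cdkn2a, which encodes p16 and p19ARF, was 9.49 to 12.3 FPKM in wild type and 44.0, 15.2 and 33.6 FPKM in Mga libraries, a rise of 1.33 (adjusted p = 0.0132). Cdkn2d, another inhibitor of CDK4 and CDK6, rose by 1.27 (adjusted p = 0.00647), and Cdkn1a, which encodes p21, rose by 0.78 (adjusted p = 0.00482). Cdkn1b, which encodes p27, fell in L3mbtl2 knockout cells by 0.93 log2 units (adjusted p = 0.0270). With the library labelled Mga knockout replicate 2 left out, the list counted 4 higher in Mga, 2 higher with 4 lower in L3mbtl2, and 1 higher with 1 lower in Pcgf6 knockout cells.

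A list of 12 genes held ubiquitin ligase subunits and regulators that act on cyclin E, cyclin D or E2F proteins. Of these, 2 rose and 2 fell in Mga, 2 rose and 3 fell in L3mbtl2 and 1 fell in Pcgf6 knockout cells. List medians were -0.04, -0.01 and -0.03, and leaving out the library labelled Mga knockout replicate 2 gave 3 higher and 5 lower in Mga. Fbxw7, which targets cyclin E for degradation, rose by 0.57 (adjusted p = 0.00944) in Mga and by 0.58 (adjusted p = 0.0130) in L3mbtl2 knockout cells. Cul3 rose by 0.48 (adjusted p = 0.0224) and 1.0 (adjusted p = 0.00151) in those knockouts. It lies on chromosome 1, where the median of all genes was 0.30 in Mga and 0.75 in L3mbtl2 knockout cells. Skp1a fell in all 3 knockouts, by 0.65 (adjusted p = 0.000125), 0.23 (adjusted p = 0.0214) and 0.42 (adjusted p = 0.00690) on the log2 scale. It lies on chromosome 11, where the median of all genes was -0.23, 0.13 and -0.31 in the same order.

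Of the 8 MuvB and DREAM genes, 4 rose in Mga, 4 rose and 1 fell in L3mbtl2 and none passed in Pcgf6 knockout cells (1 at an unadjusted p under 0.05 and none by limma-voom). Of all genes, 22.8% rose in Mga and 23.4% in L3mbtl2, and the list medians of 0.21, 0.38 and 0.13 stand beside 0.10, 0.13 and 0.04 over all genes. Without the library labelled Mga knockout replicate 2, 3 rose in Mga, where 32.6% of all genes did. In L3mbtl2 knockout cells 4 rose and 1 fell in that setting, where 31.6% and 22.6% of all genes did. Mybl1, which encodes A-MYB, rose by 1.15 (adjusted p = 0.00130) in Mga and 1.81 (adjusted p = 0.000283) in L3mbtl2 knockout cells. Lin9, a MuvB core subunit, rose by 0.67 (adjusted p = 0.0198) and 1.58 (adjusted p = 0.000700) in the same order. Both lie on chromosome 1, where the median of all tested genes was 0.30 in Mga and 0.75 in L3mbtl2 knockout cells. Lin54, the DNA-binding MuvB subunit on chromosome 5, rose by 0.66 (adjusted p = 0.00692) in L3mbtl2 knockout cells. Foxm1, a driver of G2 and M phase genes, was 17.2 to 17.5 FPKM in wild type and 8.14 and 7.69 FPKM in L3mbtl2 libraries, where it fell by 1.12 log2 units (adjusted p = 0.000391).

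The 36 G1/S genes, textbook targets of E2F proteins in DNA replication and nucleotide supply, went both ways. In Mga knockout cells 7 rose and 7 fell, in L3mbtl2 6 rose and 8 fell, and in Pcgf6 1 rose. With the library labelled Mga knockout replicate 2 left out, 8 rose and 10 fell in Mga (32.6% and 22.5% of all genes), 13 rose and 10 fell in L3mbtl2 (31.6% and 22.6%), and 4 rose and 3 fell in Pcgf6 (14.0% and 11.1%). Their medians were -0.07, -0.01 and 0.06, beside 0.10, 0.13 and 0.04 over all genes. Mcm5, a subunit of the replicative helicase, was 109 to 113 FPKM in wild type and 166, 218 and 219 FPKM in Mga libraries, a rise of 0.84 (adjusted p = 0.000606). Rpa2, a single-strand DNA binding subunit, rose by 0.84 (adjusted p = 0.000497) in Mga knockout cells. Tk1, thymidine kinase, was 15.03 to 17.1 FPKM in wild type and 5.53 and 6.17 FPKM in L3mbtl2 libraries. It fell by 1.44 log2 units there (adjusted p = 0.000594). It lies on chromosome 11, where the median of all tested genes was 0.13 in L3mbtl2 knockout cells.

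Among 20 G2/M genes none rose (3 at an unadjusted p under 0.05, none by limma-voom) and 4 fell in Mga, 4 rose and 1 fell in L3mbtl2, and 1 fell in Pcgf6 knockout cells. Aurkb, the mitotic kinase Aurora B, fell by 0.64 log2 units (adjusted p = 0.000317) in Mga and by 0.52 (adjusted p = 0.00605) in Pcgf6 knockout cells. Top2a, topoisomerase II alpha, fell by 0.58 (adjusted p = 0.00106) in Mga knockout cells. Both lie on chromosome 11, where the median of all tested genes was -0.23 in Mga and -0.31 in Pcgf6 knockout cells. With the library labelled Mga knockout replicate 2 left out, 3 rose and 11 fell in Mga knockout cells, where 32.6% and 22.5% of all genes did, and 4 rose and 3 fell in L3mbtl2 knockout cells. List medians with all libraries were -0.15, 0.00 and 0.07. Nek2, a centrosome kinase on chromosome 1, rose by 0.78 (adjusted p = 0.00348) in L3mbtl2 knockout cells. The median of all tested genes on that chromosome was 0.75 there.

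**Figure D5:**
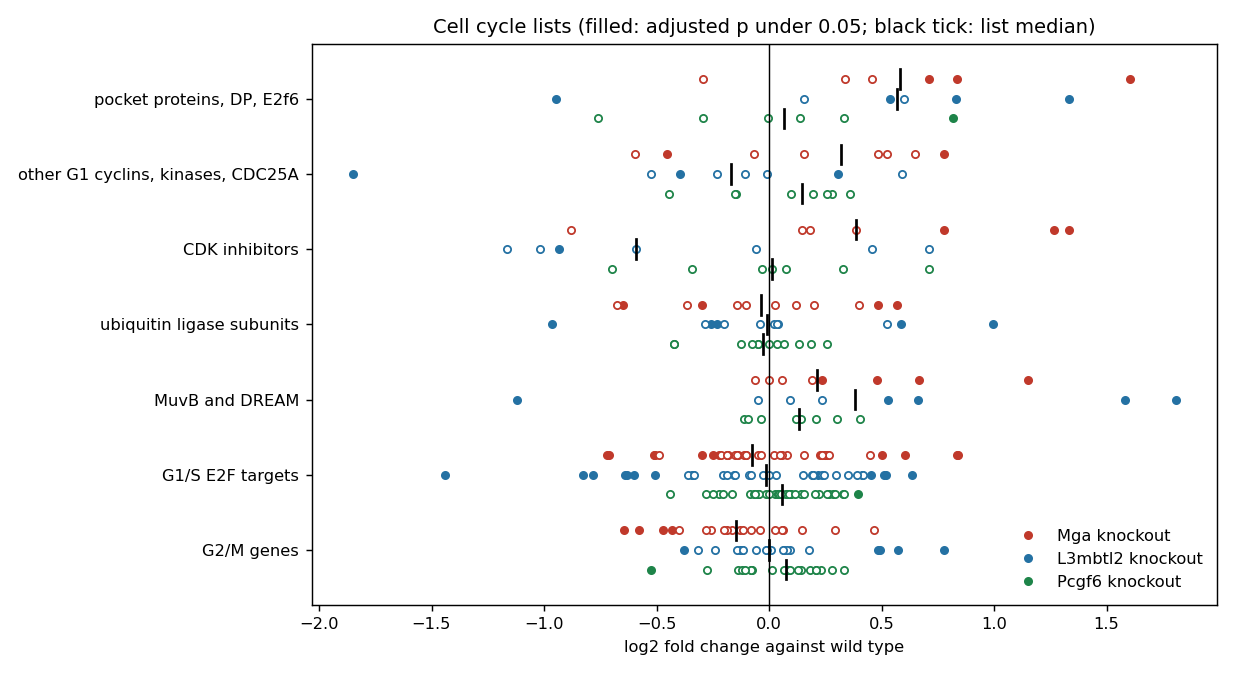
log2 fold change against wild type (horizontal axis) of each gene of 7 cell cycle lists (vertical axis), for the 3 knockouts in colour. Filled points passed the test, and black ticks are list medians. The pocket protein, DP and E2f6 list has medians of 0.58 in Mga and 0.57 in L3mbtl2, while the 36 G1/S genes spread on both sides of 0.

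Exons of 5 members overlap a gene on the other strand. Besides Ccnd3 and Ccne2 these are E2f5 with 26 shared bases, E2f7 with 86 and E2f8 with 610. The antisense genes at E2f7 and E2f8 were at most 0.152 and 0.209 FPKM. The overlapping genes at Ccnd3, E2f5 and Ccne2 reached 40.5, 38.6 and 11.8 FPKM, and their part in the values of these members was not tested.

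The genes whose pattern over the 10 libraries was most like that of a member were sought for the 4 members whose highest and lowest group means differed at least 2-fold. Candidates were 3277 protein-coding genes with differences of at least that size, and likeness was the Pearson r of log2(FPKM + 0.1), given as a description over libraries that share their genotypes. For Ccne1 they were Galm (0.992), Zfp652 (0.990) and Mrpl45 (0.989), and group means of Galm were 7.63 FPKM in wild type, 1.56 in Mga, 2.47 in L3mbtl2 and 7.90 in Pcgf6. For E2f2 they were Cdx1 (0.972), Cd37 (0.953) and Luzp4 (0.951), and Cdx1 went from 0.803 FPKM in wild type to 4.75, 3.70 and 6.34 FPKM. For E2f8 they were Slc28a1 (0.993), Cmklr1 (0.973) and Qprt (0.970), and Slc28a1 was 7.15 FPKM in wild type, 3.40 in Mga, 4.54 in L3mbtl2 and 9.72 in Pcgf6. For E2f5 they were Nefh (0.973), Ccdc172 (0.973) and Acpp (0.971).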

How the data were processed

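Per the labels' protocols, RNA was isolated with Trizol and turned into libraries with the NEBNext Ultra RNA kit. This kit leaves strand unmarked. The authors deposited FPKM for each gene. Per the submitters' processing notes, Bowtie2 2.2.3, TopHat2 2.0.12 and HTSeq 0.6.0 were used with GRCm38. The sources used here do not say how FPKM were scaled. Of 30460 identifiers, 30250 were given symbols and positions by GENCODE M21. FPKM steps gave whole reads, within 0.005 of a read, at 77.9% of genes above 0 with the GENCODE exon length and at 22.1% with a length found from the values, as for E2f3 and E2f4. Depth is the library total that the FPKM step of a single read implies, and it was not summed from the reads. Intervals of counting error take reads as independent molecules, which they need not be.

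limma 3.58.1 (R 4.3.3) was fitted on log2(FPKM + 0.1), with a variance prior that follows mean expression, for genes of at least 0.5 FPKM in at least 2 libraries. Group was the only term, and the threshold was an adjusted p of 0.05. The fold change understates differences of genes near 0. The fit was tested on simulated data in which every group had the wild type spread of each gene. That test does not cover the wider spread among the Mga libraries. The alternatives were a pseudocount of 1, no filter, median-of-ratios size factors, a spread for each group, only the 2 groups compared, a replicate block, limma-voom on recovered reads, centring by chromosome and leaving out each of the 10 libraries.

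Members and lists were chosen with earlier results of these data known. Named genes are the members, the 3 targeted genes, up to 4 genes per list with the smallest p against wild type and those that complete a family, and the 3 genes most like each member that varies at least 2-fold. Fewer than the rule allows are named. Promoter windows are those of RefSeq on GRCm38.p6, read on the gene's strand. Replicates of each group differed by more than counting noise, as repeat preparations of 1 culture also can, and each library was counted as 1 sample.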

Additional observations from a re-analysis of the deposited data

How the results depend on the processing

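No called result reversed under any alternative, and differences that turned sign (E2f1 in Mga and E2f3 in L3mbtl2 against wild type among them) were of results that did not pass. All genes passing in the 6 comparisons (Mga, L3mbtl2 and Pcgf6 against wild type, Mga against L3mbtl2, Mga against Pcgf6, L3mbtl2 against Pcgf6) were 6210, 6297, 1584, 3591, 3550 and 4803. With a spread for each group they were 3709, 11110 and 7503 against wild type, 2283 for Mga against Pcgf6 and 10429 for L3mbtl2 against Pcgf6, and in fits of the 2 groups alone 3994, 10591, 6878, 593, 198 and 9667. Members passing with a spread for each group were 9, 8 and 9 for L3mbtl2 and Pcgf6 against wild type and for L3mbtl2 against Pcgf6, and in fits of the 2 groups alone 3, 9, 9, 0, 0 and 9. For Mga against L3mbtl2, 1 member passed with no filter, with size factors or centred by chromosome, in place of 2. Leaving out 1 library at a time, all genes passing ranged over 4196 to 8674, 2942 to 8525, 157 to 3960, 1192 to 5886, 815 to 7003 and 1694 to 7357, and members over 3 to 9, 2 to 6, 1 to 2, 0 to 5, 1 to 7 and 1 to 7, with most members without the library labelled Mga knockout replicate 2 except in L3mbtl2 against wild type, and a lone remaining library was assumed to vary like the other groups. The replicate block gave 992 genes for Pcgf6 against wild type and 0 members for Mga against L3mbtl2. Same-numbered libraries deviated together at -0.02 to 0.03 over 13 pairs, and 3 of 6 wild type and Mga libraries matched best with their own number. No pairing by number was seen. In groups of 2 the deviations mirror each other, so this check cannot settle whether the numbers pair the libraries. The share of higher genes among those passing moved from 58.4% to 46.5% for L3mbtl2 against wild type and from 54.5% to 43.1% for L3mbtl2 against Pcgf6 when centred by chromosome. The causes were not tested. Counting error was at most 7.24% of a member's value, and the parts of depth and of the small groups in the precision were not tested.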
